A study of Mus musculus with 1931 samples.

Results

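Extraembryonic ectoderm-like (ExE-like) cells of 3D RtL-embryoids were compared with induced trophoblast stem cells (iTSC) made in 2D culture. The iTSC were made from the mouse 5-Factor ESC line, which carries doxycycline-inducible (DOX) *Ets2*, *Gata3*, *Eomes*, *Tfap2c* and *Cdx2* transgenes. The authors regard this line as the most likely origin of the ExE-like compartment. Members were chosen by well and by measured values: a cell was taken when at least 2500 genes were above 0 TPM. On the 3D side it also had to lie on plate 3, 4 or 5 in a well numbered 17 to 24 and not hold both *Amn* and *Cubn*, a pair of endocytic receptor genes of visceral endoderm (VE). Of the 1931 wells measured 1406 passed the minimum of genes, and 33.9% of these cells were members, 23.9% as 3D ExE-like cells and 10.03% as iTSC, which lay on plate 8. Plates 3, 4 and 5 held 35.1%, 32.1% and 32.7% of the 3D ExE-like cells.

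RtL-embryoids combine the 5-Factor line with Kermit ESCs, which carry an Oct3/4-GFP reporter, and with mCherry-marked iGATA6 ESCs, and many were handpicked into 1 pool before dissociation. The 2D iTSC grew alone, attached to gelatin, in serum-based TS medium conditioned by feeder fibroblasts and supplemented with FGF4 and Heparin, whereas the embryoids floated in agarose microwells in reconstructed embryo medium. DOX was given at 2 µg/ml for several days on both sides and then withdrawn for a day. Cells were stained against CD40, sorted singly by fluorescence and measured by SMART-seq2, which copies polyadenylated RNA along its whole length. Each side is 1 sample, 1 pool of embryoids against 1 culture, and the 3 plates of 3D cells are technical splits of that pool. Medium, attachment, neighbouring cells, plates and libraries all change between the sides at once and cannot be told apart.

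Trophoblast stem cells are the self-renewing cells of the extraembryonic ectoderm. In the embryo they border the epiblast, whose FGF4 holds them in the stem state, and they lose *Cdx2*, *Elf5* and *Eomes* when they turn to ectoplacental cone or giant cells. In culture FGF4, Heparin and factors from fibroblasts stand in for the epiblast.

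Expression is given as TP10k, the deposited TPM scaled to a sum of 10000 in each cell, and a mean is over all cells of a side, zeros included. TPM keep no read number, so the number of genes above 0 stands for depth. It was lower in 3D, with a median of 5400 genes (range 2526 to 8409) against 8537 (2864 to 11195) in iTSC, and it differed between the plates, with medians of 6662.5, 5127.5 and 4512. For this reason each comparison was repeated in cells of 6000 to 8000 expressed genes on both sides, 99 3D cells against 42 iTSC. This narrows the gap in depth but does not close it, with medians of 6715 genes in 3D and 7472 in iTSC. Plate 3 gave 80 of these 3D cells, plate 4 gave 12 and plate 5 gave 7. The highest gene number that failed the minimum was 2314 in wells 17 to 24 and 2017 in iTSC. Of the 3D cells in wells 17 to 24 with enough genes, 17 were left out by *Amn* and *Cubn*. Their median *Amn* was 8.30 TP10k, and *Cdx2* was at 0 in all of them. Of the cells kept, 27 held *Amn* alone and 10 *Cubn* alone. Among iTSC, to which that exclusion is not applied, 8 cells held both transcripts, with a median *Amn* of 0.35 and a highest *Cubn* of 0.0060 TP10k.

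The trophoblast names fit the mean of *Elf5* on both sides. *Elf5*, a transcription factor that marks trophoblast stem cells, averaged 0.662 TP10k in 3D ExE-like cells and 0.940 in iTSC, against 0.00574 in 2D ESCs, 0.0110 in 3D VE-like cells and 0.00791 in 3D Epi-like cells. *Cd40*, the gene of the sort antigen, averaged 0.710 TP10k in 3D and 0.704 in iTSC, with a log2 ratio of 0.01. Shares of cells carry exact 95% confidence intervals (CI, Clopper-Pearson), and these cover counting error only.

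The largest difference lay in *H19*, the maternally expressed long non-coding RNA of an imprinted pair with the growth factor gene *Igf2*. *H19* (chromosome 7, 142575529 to 142578143, minus strand, GRCm38, Gencode vM21) averaged 71.3 TP10k in iTSC. In 3D ExE-like cells it averaged 0.0464 TP10k, with 0.0390, 0.0595 and 0.0414 on plates 3, 4 and 5. The transcript was found in 88.7% of iTSC (95% CI 82.2% to 93.4%) and in 4.17% of 3D cells (14 cells, 95% CI 2.30% to 6.89%). The iTSC were spread widely, with a lower quartile of 0.330, a median of 37.1 and an upper quartile of 120.4 TP10k, and 80 of them (56.7%) held at least 10 TP10k. No 3D cell reached 10 TP10k, the highest held 3.22, and the sides overlapped only below that level. In cells of 6000 to 8000 genes *H19* was found in 38 of 42 iTSC and in 7 of 99 3D cells.

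*Igf2* (chromosome 7, 142650766 to 142666816), which lies 72623 bases from *H19* and is transcribed from the paternal chromosome, did not follow it. It averaged 6.77 TP10k in 3D (6.73, 8.34 and 5.28 on the plates) and 7.43 in iTSC. It was found in 78% of 3D cells (95% CI 73.2% to 82.3%) and 83.7% of iTSC (95% CI 76.5% to 89.4%), with medians of 3.60 and 4.12 TP10k. The plates lay on both sides of the iTSC mean. Thus 73.8% of 3D cells held *Igf2* without *H19*, against 10.6% of iTSC. Both transcripts were above 0 in 73% of iTSC, which counts any level and does not show that both were high in the same cells. The iTSC with 415.5 TP10k of *H19* held 0 of *Igf2*, while another held 196.9 and 20.1 TP10k. The relation of the 2 levels over cells was not tested. The 2D ESCs held little of either, 0.0252 TP10k of *H19* and 0.0044 of *Igf2*.

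*Mir675* (chromosome 7, 142577064 to 142577147), a microRNA gene inside *H19*, was listed at 0 in all 3D cells, which by the limit of 3 counts allows a share of cells with this transcript detected of up to 0.893%, and at 15.1 TP10k in iTSC. All 62 iTSC with *Mir675* also held *H19*. Its TPM come from full-length cDNA and cannot be told apart from reads of *H19*, so they do not measure the mature microRNA. The hairpin is shown because it is the stretch of *H19* that carries this value. It is printed from RefSeq (GRCm38.p6, chr7:142577064-142577147, minus strand) with the 2 mature arms in capitals.
Mir675 hairpin: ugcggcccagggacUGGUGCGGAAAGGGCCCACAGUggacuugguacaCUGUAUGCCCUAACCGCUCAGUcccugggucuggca
The mature arms follow with the seed, bases 2 to 8, in capitals. The arms do not share a seed.
mmu-miR-675-5p: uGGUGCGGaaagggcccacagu
mmu-miR-675-3p: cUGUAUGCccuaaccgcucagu

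**Figure D1:**
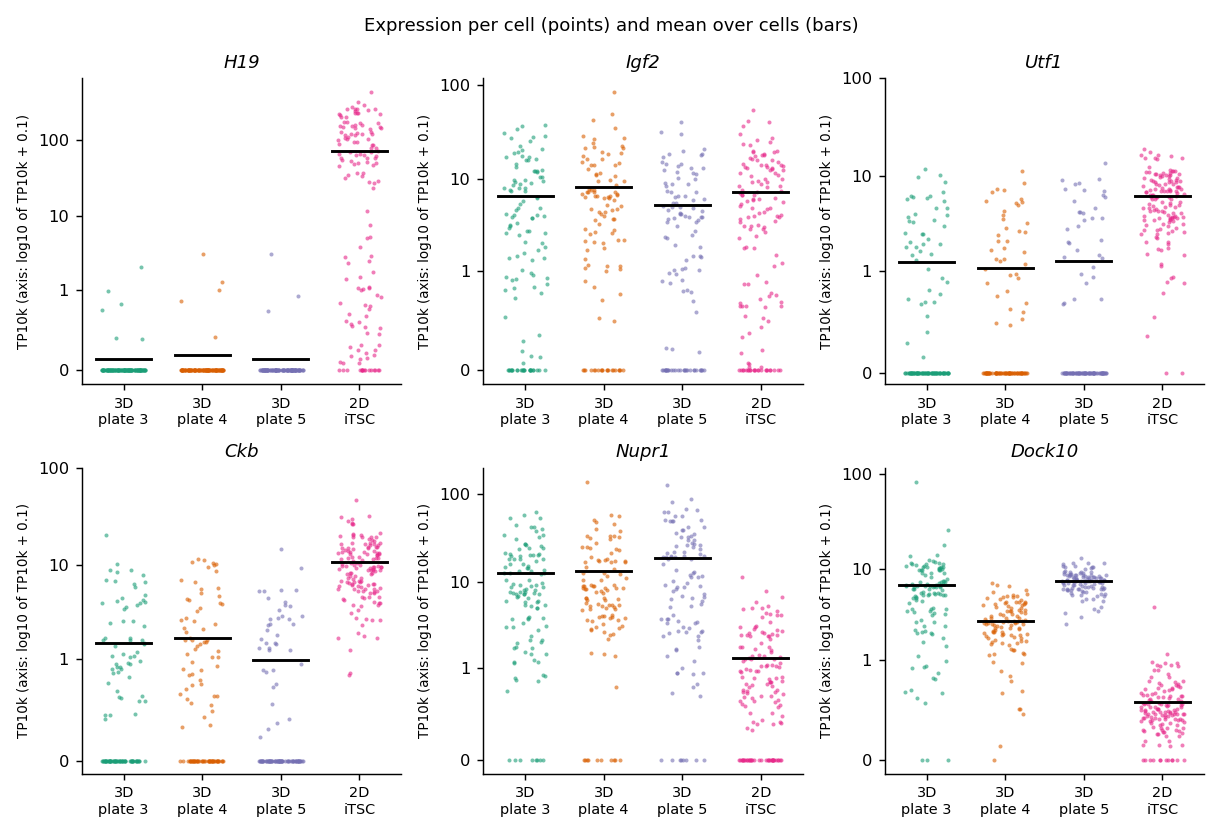
Expression of *H19*, *Igf2*, *Utf1*, *Ckb*, *Nupr1* and *Dock10* in single cells. Each point is a cell of 3D plate 3, 4 or 5 or of 2D iTSC, the vertical axis is TP10k on a log10 scale after adding 0.1, and the bar is the mean over cells. *H19* is at 0 in most 3D cells of every plate, *Igf2* spans a similar range on both sides, and *Dock10* is lower on plate 4 (2.79 TP10k) than on plates 3 and 5 (6.71 and 7.38).

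Across the transcriptome, 10594 genes passed the filter of being above 0 in at least 25% of cells on 1 of the sides. A gene was called when the ratio of means, each plus 0.1 TP10k, was at least 2-fold and had the same sign for each of the 3 plates. By this rule 3.91% of the genes compared were higher in 3D and 3.11% lower (330 genes), 7.02% in all. With 1 sample a side there is no test, and calls rest on the size of a difference and on the plates. Of the called genes 49 were at least 4-fold higher and 40 at least 4-fold lower. The median log2 ratio of all genes compared was 0.03. In cells of 6000 to 8000 genes 3.49% of 9890 genes were higher and 2.96% lower, 6.45% in all. Of the genes called in all cells 64.0% of the higher and 67.6% of the lower were called there again, and 1 turned its sign. Of the calls 55.6% were higher in 3D, and this split rests on the scaling. It was 71.1% on TPM as deposited, whose sum over the table was larger in 3D (median 648791 against 564024) and whose median log2 ratio was 0.16. It was 26.6% on the difference of mean ln(TP10k + 1), by which 25 genes were higher and 69 lower. Mean ln(TP10k + 1) correlated at r = 0.937 over the 10594 genes, as a description, and at 0.944 in cells of 6000 to 8000 genes. Pairs of 3D plates gave 0.980 to 0.993, and single plates against iTSC 0.914 to 0.942. 3D ExE-like cells gave 0.926 with 3D Epi-like cells, 0.906 with 3D VE-like cells and 0.902 with ESCs.

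**Figure D2:**
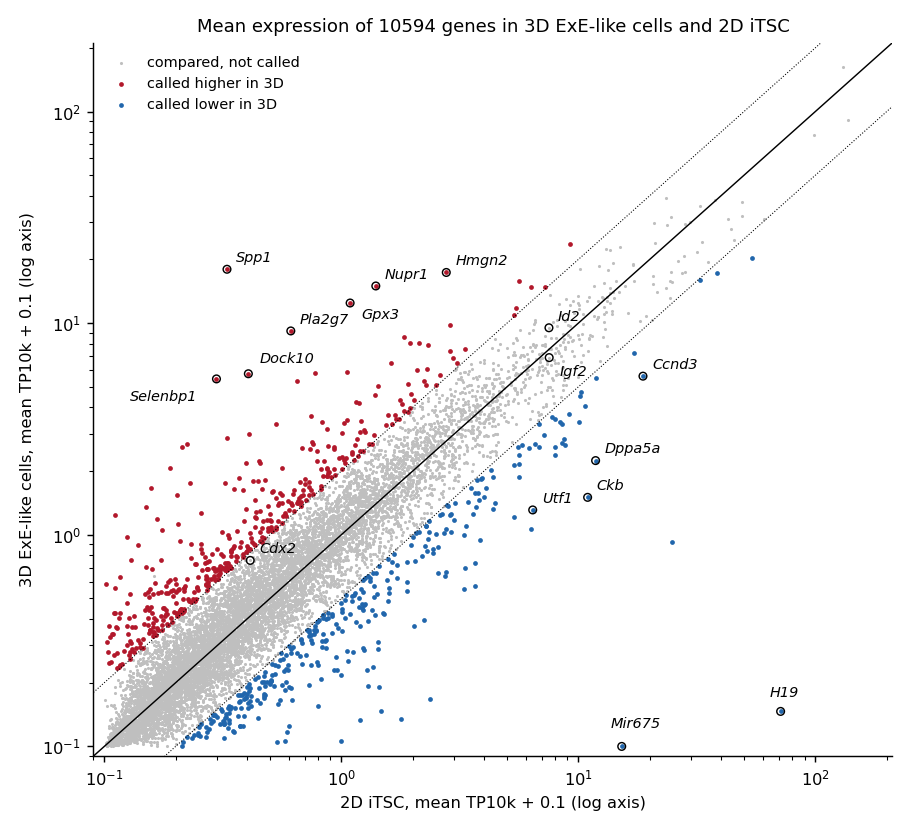
Mean expression of the 10594 genes compared. The horizontal axis is the mean over iTSC and the vertical axis the mean over 3D ExE-like cells, both in TP10k + 0.1 on log axes, with the diagonal and the 2-fold limits as lines. Red points are the genes called higher (3.91%) and blue points those called lower (3.11%) in 3D, with *H19* and *Mir675* far below the diagonal and *Spp1* far above it.

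Among the 12 genes with the largest drop on the ln scale in 3D, *H19*, *Mir675*, *Utf1* and *Dppa5a* are taken up elsewhere. *Ckb*, a brain-type creatine kinase that buffers ATP, averaged 1.40 TP10k in 3D (1.52, 1.71 and 0.972) and 10.8 in iTSC, a log2 ratio of -2.86. It was found in 47.6% of 3D cells and in every iTSC. *Ccnd3*, a D-type cyclin of the G1 phase, averaged 5.52 TP10k (5.75, 6.16 and 4.64) against 18.6, a log2 ratio of -1.74. Both genes kept the gap in cells of 6000 to 8000 genes, with log2 ratios of -2.41 and -1.67. *Ass1*, which makes argininosuccinate on the way to arginine, averaged 2.55 against 8.71 TP10k. *Upp1*, a uridine phosphorylase, averaged 2.74 against 8.56 TP10k, and *Bst2*, the membrane protein tetherin, 1.12 against 5.23. *Tinagl1*, a secreted matrix protein, averaged 1.77 TP10k against 5.53. *Hspb1*, a small heat shock protein, differed most between the plates, with 5.42, 2.97 and 1.41 TP10k against 9.94 in iTSC. It thus lay below iTSC on each plate, and its log2 ratio was -1.01 in cells of 6000 to 8000 genes. *Sparc*, a collagen-binding matrix protein that is abundant in endoderm, averaged 2.27 against 7.87 TP10k. With the 17 *Amn* and *Cubn* cells put back, its log2 ratio of -1.75 became -0.87.

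In the other direction *Nupr1*, a small stress-induced chromatin protein, led the 12 genes. It averaged 14.9 TP10k in 3D (12.7, 13.4 and 18.7) and 1.3 in iTSC, a log2 ratio of 3.42, with medians over cells of 8.27 and 0.620. *Spp1*, the secreted phosphoprotein osteopontin, had the largest ratio of the 12. It averaged 17.9 TP10k in 3D (15.2, 12.6 and 25.9) and 0.229 in iTSC, but was found in only 54.2% of 3D cells and 31.2% of iTSC. *Pla2g7*, which hydrolyses platelet-activating factor, averaged 9.09 against 0.512 TP10k. *Gpx3*, a secreted glutathione peroxidase, averaged 12.4 (13.3, 13.3 and 10.4) against 0.989 TP10k, and *Selenbp1*, a selenium-binding methanethiol oxidase, 5.35 against 0.197. These 2 genes were much lower in the other 3D lineages, with 1.52 and 0.00225 TP10k in 3D VE-like and 0.484 and 0.0316 in 3D Epi-like cells.

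*Dock10*, an activator of small GTPases, behaved in another way. It averaged 5.67 TP10k in 3D ExE-like cells (6.71, 2.79 and 7.38) and 0.305 in iTSC, and it was as high in 3D VE-like (5.48) and 3D Epi-like cells (5.31), while iXEN cells and ESCs held 0.384 and 0.660. The 3D cells all share the plates and their library preparation, and the part of these in the value of *Dock10* was not tested. *Slc39a1*, a zinc importer, averaged 2.89 against 0.309 TP10k, *Mdk*, the growth factor midkine, 5.70 against 0.676, and *Sri*, the calcium-binding protein sorcin, 6.4 against 1.53. *Map1lc3b*, a ubiquitin-like protein of autophagosomes, averaged 8.53 against 1.74 TP10k. *Hmgn2* and *Cbx3*, which encode a nucleosome-binding and a heterochromatin protein, averaged 17.3 against 2.67 and 7.82 against 2.22 TP10k. Like *Ckb* and *Ccnd3*, both have pseudogene copies in the annotation, so reads may be split between copies and these 4 values are uncertain.

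**Figure D3:**
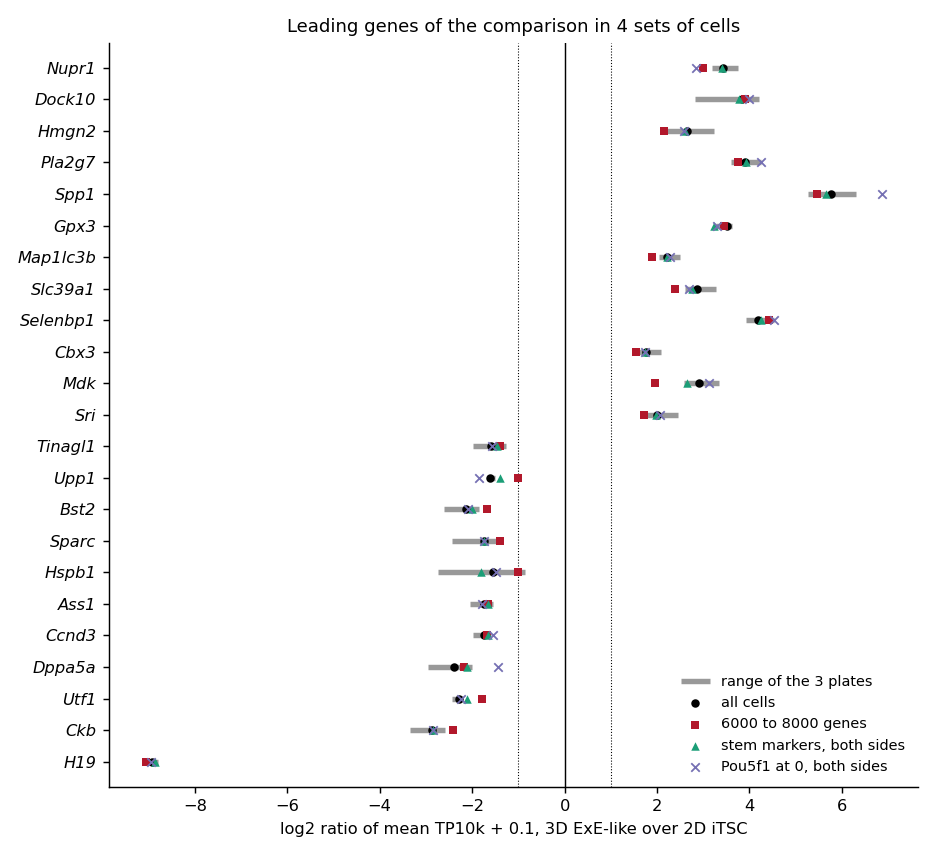
Log2 ratios of 3D ExE-like over 2D iTSC means (TP10k + 0.1) for the leading genes in each direction. *Mir675*, listed at 0 in 3D, is left out. Black points are all cells and grey bars the range over plates 3, 4 and 5. Red squares are cells of 6000 to 8000 genes, green triangles cells with 2 or more stem markers on both sides and violet crosses cells with *Pou5f1* at 0 on both sides. Each gene keeps its side of 0 in all sets, and *Hspb1* and *Upp1* come closest to the 2-fold limit, both at -1.01 in cells of 6000 to 8000 genes.

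None of the 5 factors given as transgenes was called in all cells. *Cdx2*, which sets up trophectoderm, averaged 0.657 TP10k in 3D (0.833, 0.518 and 0.604) and 0.313 in iTSC. *Tfap2c* averaged 1.03 against 0.678 TP10k, *Gata3* 0.861 against 0.519, *Ets2* 0.419 against 0.264 and *Eomes* 0.481 against 0.593. Their median log2 ratio was 0.54. It was 1.07 in cells of 6000 to 8000 genes, and *Cdx2* was called higher there (0.745 against 0.282 TP10k). *Tfap2c* and *Gata3* were above 2-fold there as well, with log2 ratios of 1.10 and 1.07, but did not keep their sign on all plates. The values do not tell transgene from endogenous transcripts.

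Of 20 further trophoblast stem genes 19 could be compared. In 3D 6 were called lower and 1 higher, beside 3.11% and 3.91% of all genes. The median log2 ratio was -0.69 against 0.03 for all genes. The 6 were *Nr0b1*, *Wnt7b*, *Cited1*, *Bmp8b*, *Tead4* and *Hand1*. *Cited1*, a transcriptional coactivator, averaged 2.49 TP10k in 3D (2.75, 2.63 and 2.07) and 7.88 in iTSC. *Bmp8b*, a BMP ligand of the extraembryonic ectoderm, averaged 0.431 (0.379, 0.392 and 0.526) against 1.5 TP10k, and *Wnt7b* 0.270 against 1.09. *Tead4*, the DNA-binding partner of YAP in trophectoderm, averaged 0.144 against 0.581 TP10k. *Nr0b1*, an orphan nuclear receptor gene also found in ESCs (1.96 TP10k), averaged 0.117 against 0.893. *Hand1*, a factor of giant cell differentiation, averaged 0.880 against 1.90 TP10k, and its log2 ratio of -1.03 was -0.31 in cells of 6000 to 8000 genes. The gene called higher was *Sall4*, a zinc finger factor shared with ESCs, with 1.79 against 0.771 TP10k.

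Further trophoblast stem genes were not called in all cells. *Esrrb*, a nuclear receptor required in trophoblast stem cells, averaged 0.493 against 0.844 TP10k, *Fgfr2*, the receptor for FGF4, 0.802 against 1.05, and *Elf5* 0.662 against 0.940. *Id2*, an inhibitor of bHLH factors, averaged 9.41 against 7.42 TP10k. *Bmp4* averaged 0.987 TP10k in 3D (0.769, 1.15 and 1.06) and 1.98 in iTSC, just short of 2-fold in all cells and called in cells of 6000 to 8000 genes (0.993 against 2.10). *Plet1* averaged 1.13 against 1.87 TP10k, and *Rhox6* and *Rhox9*, related genes between which reads may be split, 2.49 against 3.00 and 1.72 against 2.91.

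**Figure D4:**
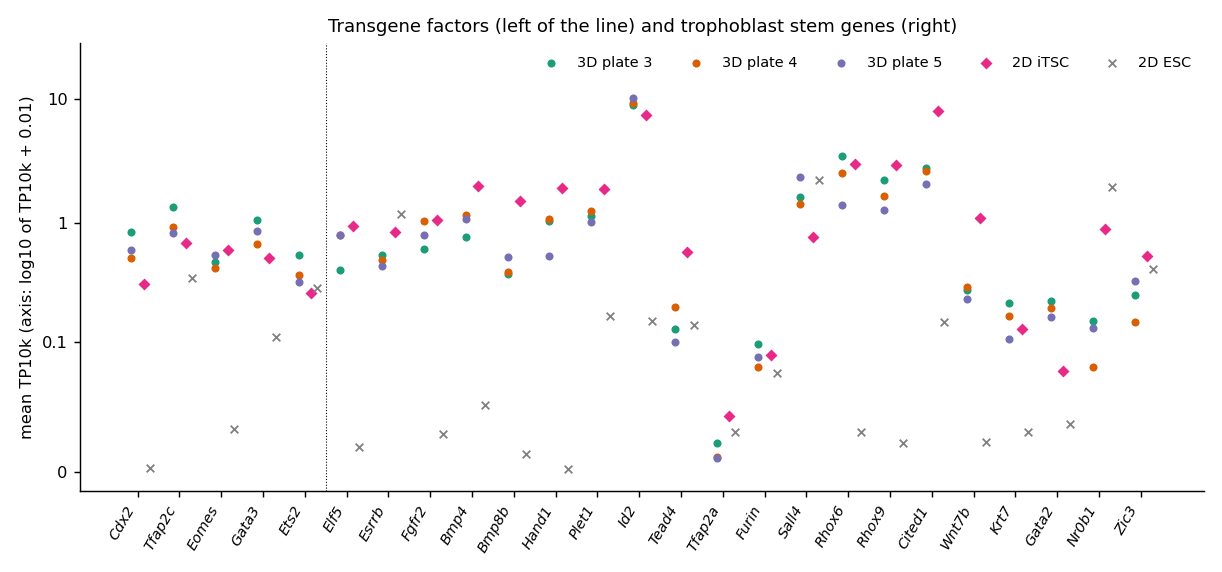
Mean TP10k, on a log10 axis after adding 0.01, of the 5 transgene factors and 20 trophoblast stem genes. Dots are the 3D ExE-like cells of plates 3, 4 and 5, diamonds 2D iTSC and crosses 2D ESCs. Most stem genes lie lower in 3D than in iTSC, as *Cited1* with 2.07 to 2.75 against 7.88, while the dots of *Cdx2* and *Id2* lie above the diamond.

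All 19 trophoblast stem genes compared were present in a smaller share of 3D cells, but the transgene factor *Cdx2* was not. *Cdx2* was found in 64.6% of 3D cells and 63.1% of iTSC, and in 74.7% and 59.5% of cells of 6000 to 8000 genes. At least 2 of *Cdx2*, *Elf5*, *Eomes*, *Esrrb* and *Fgfr2* were found in 78.3% of 3D cells (95% CI 73.5% to 82.6%) and in 97.2% of iTSC (95% CI 92.9% to 99.2%). All 5 were found in 15.2% (95% CI 11.5% to 19.5%) and 49.6% (95% CI 41.1% to 58.2%). The gap was smaller in cells of 6000 to 8000 genes. At least 2 markers were found in 89.9% of these 99 3D cells (95% CI 82.2% to 95.05%). In the 42 iTSC the share was 95.2% (95% CI 83.8% to 99.4%). Because fewer genes were detected per 3D cell, 97.1% of all genes compared were found in a smaller share of 3D cells. In cells of 6000 to 8000 genes this held for 67.4% of all genes and for 18 of the 19 stem genes, counted among those compared in all cells. There *Elf5* was found in 43.4% of 3D cells and 73.8% of iTSC, and the cells above 0 averaged 1.40 and 1.2 TP10k, with medians in the other order (0.343 and 0.815). *Plet1* was found in 44.4% and 83.3%, with 3.37 and 2.09 TP10k in the cells above 0 and equal medians of 1.46. Over all cells 89.5% of all genes had a higher mean in the 3D cells above 0. *Cited1* differed on both counts, with 76.8% and 97.6% of cells and 3.75 and 9.06 TP10k.

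When only cells with at least 2 of these 5 markers were compared, 3.57% of genes were higher and 3.03% lower, 6.6% in all. The authors split ExE-like cells into 2 subclusters, and the subcluster with most expression of key trophoblast genes clustered close to iTSC. The marker count here takes any level above 0 and is not that split, so cells of both subclusters can be included. Of the genes called in all cells 85% of the higher and 90.6% of the lower were called again. *Spp1* averaged 16.5 TP10k in these 3D cells and 0.231 in these iTSC, *H19* 0.0568 against 72.6 and *Cited1* 2.68 against 7.89. Some genes were higher in the 73 3D cells with fewer markers, which had a median of 4614 genes against 5651. *Gpx3* averaged 25.6 TP10k there and 8.67 in the cells with more, *Cdkn1c*, an imprinted CDK inhibitor of giant cells, 2.28 against 0.263, and *Phlda2*, an imprinted gene that restrains placental growth, 3.03 against 0.827. In contrast the means of *Nupr1* (18.4 and 13.9), *Pla2g7* (9.81 and 8.89) and *Dock10* (6.14 and 5.53) were close in both sets of 3D cells. Such means hide the spread within a set. Among 3D cells with at least 2 markers, single cells held 0 and 127.8 TP10k of *Nupr1*.

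Pluripotency genes are expressed by the ESCs and turned down in reprogramming. Of the list of 24 genes that were measured, 16 could be compared. Of these 6 were called lower in 3D and 0 higher, beside 3.11% and 3.91% of all genes, with a median log2 ratio of -0.97. When cells of 6000 to 8000 genes were compared, 4 of 17 were lower and 2 higher, *Lin28a* (0.420 against 0.154 TP10k) and *Lefty2* (0.413 against 0.0950), with a median of -0.75. *Pou5f1*, which encodes Oct3/4, averaged 0.271 TP10k in 3D (0.254, 0.111 and 0.446) and 1.93 in iTSC, against 27.8 in ESCs. It was found in 11.9% of 3D cells (95% CI 8.64% to 15.9%) and 63.8% of iTSC (95% CI 55.3% to 71.7%), and in 13.1% and 61.9% of cells of 6000 to 8000 genes. Most iTSC and few 3D cells thus held it.

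*Utf1*, a chromatin factor of ESCs and early trophoblast, averaged 1.21 TP10k (1.27, 1.08 and 1.28) against 6.32 and was found in 36% of 3D cells and 98.6% of iTSC. Its level in iTSC exceeded that in ESCs (2.53 TP10k). *Dppa5a*, an RNA-binding protein gene of ESCs, averaged 2.14 TP10k (2.85, 1.43 and 2.08) against 11.7, far below ESCs on both sides. *Sox2*, which has a role in trophoblast stem cells too, averaged 0.324 against 0.812 TP10k, *Dppa4* 0.930 against 2.02 and *Nodal*, a TGF-beta ligand, 0.0287 against 0.236. These 3 were within 2-fold in cells of 6000 to 8000 genes (log2 ratios of -0.86, -0.75 and -0.94). *Zfp42* (2.16 and 1.95 TP10k) and *Klf5* (1.53 and 1.74) were close on both sides. *Nanog* averaged 0.115 against 0.25 TP10k, and its ratio turned in cells of 6000 to 8000 genes (0.220 against 0.111). In cells with *Pou5f1* at 0 on both sides, 88.1% of 3D cells and 36.2% of iTSC, the median of the list was -0.23 over 14 genes. There 4.68% of all genes were higher and 3.2% lower, 7.88% in all. The log2 ratio of *Utf1* was -2.23 in these cells, that of *Dppa5a* -1.43 and that of *H19* -8.95.

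Imprinted genes are those of which only the maternal or paternal copy is active. Of 19 compared, 3 were called lower and 1 higher, beside 3.11% and 3.91% of all genes, and the median log2 ratio was -0.27. Next to *H19*, *Mest*, a paternally expressed hydrolase gene, averaged 0.0328 TP10k in 3D (0.0292, 0.0295 and 0.0399) and 1.10 in iTSC, and was found in 6.25% of 3D cells and 71.6% of iTSC. *Plagl1*, a zinc finger factor, averaged 0.102 against 0.363 TP10k. *Phlda2* was called higher, with 1.31 (1.81, 0.997 and 1.07) against 0.548 TP10k. This call was lost in cells with at least 2 stem markers on both sides (log2 ratio 0.57), with *Pou5f1* at 0 on both sides (0.89) and without plate 3 (0.81). *Cdkn1c* was above 2-fold in the mean (0.700 against 0.277 TP10k) but not on plate 5 (0.271). *Meg3*, *Peg3*, *Igf2r* and *Sgce* lay within 2-fold, with log2 ratios of -0.29, -0.42, 0.03 and -0.04.

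DNA methylation is laid down by Dnmt3a and Dnmt3b with the cofactor Dnmt3l and removed through Tet enzymes. Of 12 genes of this machinery 3 were called lower and 1 higher, in all cells and again in cells of 6000 to 8000 genes. The shares of all genes were 3.11% and 3.91% in all cells. *Dnmt3b* averaged 0.636 TP10k in 3D (0.673, 0.647 and 0.586) and 3.56 in iTSC, where every cell held it. *Dnmt3l* averaged 0.328 against 1.39 TP10k and *Tet1* 0.387 against 1.47. *Dnmt3a* went the other way, with 0.786 (0.761, 0.826 and 0.772) against 0.251 TP10k. The maintenance genes *Dnmt1* and *Uhrf1* had log2 ratios of -0.35 and -0.29.

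FGF4 acts through Fgfr2 and ERK, which induces feedback inhibitors of the Sprouty and Dusp families and Etv factors. Of 16 genes compared 1 was higher and 1 lower, beside 3.91% and 3.11% of all genes, with a median of -0.04. *Spry2* averaged 2.13 TP10k in 3D (1.68, 1.66 and 3.07) and 0.351 in iTSC, *Etv4* 0.370 (0.40, 0.363 and 0.344) against 1.2. The call of *Etv4* was lost in cells of 6000 to 8000 genes (log2 ratio -0.94). *Etv5* and *Dusp6* had log2 ratios of -0.88 and -0.36. *Spry2* was higher in the other 3D lineages too, with 1.55 TP10k in VE-like against 0.414 in iXEN cells and 3.29 in Epi-like cells against 0.605 in ESCs.

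In the BMP and Nodal pathways ligands bind receptors that phosphorylate Smads and induce *Id* genes. Of 20 genes compared 2 were lower and 1 higher, beside 3.11% and 3.91% of all genes, with a median of 0.12. The ligands *Bmp8b* and *Nodal* were the 2 lower ones. *Id3*, a BMP target, averaged 2.77 TP10k in 3D (3.07, 2.85 and 2.38) and 0.228 in iTSC, and was found in 54.2% and 17% of cells. *Id1* and *Id2* had log2 ratios of 0.75 and 0.34. In cells of 6000 to 8000 genes *Id3* averaged 1.90 against 0.598 TP10k, and 3 genes of the list were higher and 2 lower.

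Glycolysis splits glucose to pyruvate and lactate. Of 20 genes 6 were called lower, beside 3.11% of all genes, and 0 higher, 19 of the 20 had a ratio below 0, and the median log2 ratio was -0.66. *Ldha*, which makes lactate, averaged 17.1 TP10k in 3D (16.9, 18.5 and 16) and 38.5 in iTSC, the glucose importer *Slc2a1* 3.23 (3.80, 3.81 and 2.06) against 8.41 and *Pgk1* 4.44 against 10.1. In cells of 6000 to 8000 genes the median was -0.48 and only *Pgk1* was still called (3.99 against 9.21), beside 2.96% of all genes. *Hk2*, the inducible hexokinase, had a log2 ratio of -0.16 and the lactate transporter gene *Slc16a1* one of 0.40. Oxidative phosphorylation genes did not share this, with 0 of 24 called and a median of 0.01. Glycolysis genes had medians below 0 in the other pairs too, -0.34 in VE-like over iXEN cells and -0.34 in Epi-like cells over ESCs. There 3 of 20 and 2 of 20 were called lower, beside 1.73% and 2.1% of all genes. Of 16 hypoxia genes in the ExE-like pair 1 was higher and 1 lower, beside 3.91% and 3.11% of all genes, with a median of 0.05. *Egln3*, a prolyl hydroxylase of the oxygen sensor, was higher (0.339 against 0.0488 TP10k). *Pdk1*, a kinase that keeps pyruvate from mitochondria, was lower (0.410 against 1.27). *Pdk1* was not called in cells of 6000 to 8000 genes (log2 ratio -0.89). None of 22 genes of cholesterol synthesis was called (median 0.04).

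The integrated stress response raises ATF4 targets when translation slows. Of 19 genes 3 were called higher and 0 lower, beside 3.91% and 3.11% of all genes, with a median of 0.24. The higher ones were *Nupr1*, *Atf5* (0.425 against 0.0602 TP10k) and *Vldlr* (0.296 against 0.0650). *Atf4* itself and its targets *Trib3* and *Asns* had log2 ratios of -0.44, -0.44 and 0.24. The median of the list was above 0 in the other pairs too, 0.34 in VE-like over iXEN cells and 0.63 in Epi-like cells over ESCs. There 1 of 19 and 4 of 17 were called higher, beside 0.914% and 2.71% of all genes. Among 22 metallothionein and redox genes in the ExE-like pair 4 were higher and 2 lower, beside 3.91% and 3.11% of all genes. *Gpx3*, *Nqo1* (1.34 against 0.495 TP10k), *Gclc*, which limits glutathione synthesis (0.516 against 0.124), and *Prdx2* (10.9 against 5.24) were the higher ones. The glutathione transferase genes *Gstm1* (2.63 against 8.42 TP10k) and *Gsta4* (1.48 against 3.55) were the lower ones. *Gclc* and *Gsta4* were not called in cells of 6000 to 8000 genes (log2 ratios of 0.90 and -0.81). Of 20 immediate early and heat shock genes 4 were lower and 0 higher, beside 3.11% and 3.91% of all genes. *Fos* averaged 0.152 TP10k in 3D and 0.966 in iTSC, *Dusp1* 0.558 against 1.27 and the chaperone *Hsp90aa1* 20.2 against 53.9, beside *Hspb1*. *Egr1* and *Jun*, which are induced with *Fos*, had log2 ratios of -0.32 and 0.51. Of 17 p53 target genes only *Perp*, a desmosome protein gene, was called, with 0.559 against 2.47 TP10k, a share near the 7.02% of all genes.

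Basement membrane genes make the sheet between epithelia that separates the compartments of the embryo. Of 18 genes compared 4 were lower and 1 higher, beside 3.11% and 3.91% of all genes, and the median was -0.34. *Nid2*, which links laminin to collagen, averaged 0.212 TP10k in 3D (0.253, 0.199 and 0.182) and 1.33 in iTSC, the laminin chain *Lama5* 1.40 against 3.89 and *Col18a1* 0.289 against 1.05, beside *Sparc*. The laminin chains *Lamb1* and *Lamc1* and *Col4a1* had log2 ratios of 0.24, 0.76 and 0.14. *Spp1* was the higher one.

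Of junction and polarity genes 2 of 20 were higher and 1 lower, beside 3.91% and 3.11% of all genes. *F11r*, a tight junction adhesion molecule, averaged 5.94 TP10k in 3D (6.03, 5.35 and 6.44) and 2.20 in iTSC, *Krt8*, a keratin of simple epithelia, 5.21 against 2.12 and the polarity gene *Pard6b* 0.15 against 0.692. Of 15 integrin and cadherin genes E-cadherin *Cdh1* was the 1 called, with 1.68 TP10k in 3D (1.80, 1.52 and 1.70) against 0.627, a share near the 7.02% of all genes. There was also 1 lower gene in that list in cells of 6000 to 8000 genes. In the other 3D lineages *Cdh1* did not differ by 2-fold from the 2D culture (0.645 against 0.671 TP10k in iXEN, 0.368 against 0.550 in ESCs). YAP, a mechanosensitive coactivator, induces *Cyr61* and *Ctgf*, and both were lower in 3D, with 0.324 (0.306, 0.554 and 0.116) against 1.41 and 0.0394 against 0.287 TP10k. *Anxa3* was lower as well (2.07 against 5.54 TP10k). These were the 3 called of 17 YAP target and actin genes, with 0 higher, beside 3.11% and 3.91% of all genes. The median was -0.27. In VE-like over iXEN cells 8 of 17 were lower and 0 higher (median -0.72), beside 1.73% of all genes lower. In Epi-like cells over ESCs 5 of 16 were lower and 2 higher (median -0.28), beside 2.1% of all genes lower and 2.71% higher.

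Proliferation genes were close in their means over all cells of a side. None of 24 replication and mitosis genes was called in either direction, and their median was -0.22. *Mki67*, *Top2a* and *Pcna* had log2 ratios of -0.38, 0.08 and -0.17. These means do not show how proliferation differs among the 3D cells. The authors report lower proliferation markers in the ExE-like subcluster with less expression of key trophoblast genes. That split was not made here. Of 11 G1 cyclin and CDK inhibitor genes only *Ccnd3* was called, beside 7.02% of all genes. Genes of trophoblast differentiation were mostly too rare, and 8 of 22 could be compared. Of these 1 was called higher, *Phlda2*, and 1 lower, beside 3.91% and 3.11% of all genes. In cells with at least 2 stem markers on both sides 0 were higher and 2 lower.

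**Figure D5:**
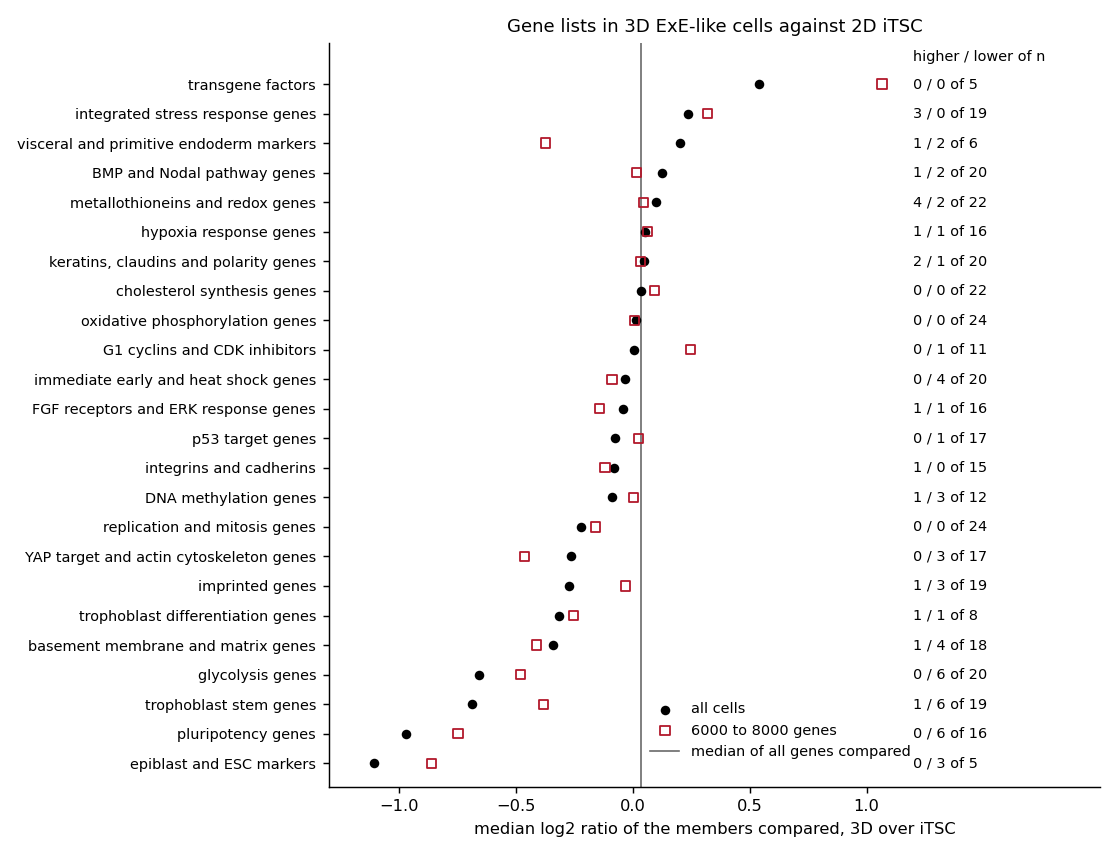
Median log2 ratio of the members compared in each gene list, 3D ExE-like over 2D iTSC, in all cells (black) and in cells of 6000 to 8000 genes (red squares). The grey line is the median of all genes compared, 0.03, and the numbers at the right are the genes called higher and lower of those compared. Pluripotency, trophoblast stem and glycolysis genes lie lowest apart from the short list of epiblast and ESC markers, and oxidative phosphorylation genes lie next to the median of all genes.

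Endoderm and epiblast markers were lower on both sides, as sums, than in the cells that they mark. The 3D ExE-like cells were chosen for lacking *Amn* and *Cubn* together and the VE-like cells for holding both. Their gap in endoderm markers is therefore partly set by that choice, which was not applied to iTSC. The summed 17 endoderm markers averaged 10.7 TP10k in 3D ExE-like cells (8.95 to 12.1 on the plates) and 25.2 in iTSC, against 150.9 in 3D VE-like cells. In iTSC 15 of the 17 averaged below 0.1 TP10k, and *Apoe* (17.1 TP10k) and *Sparc* made up most of the sum. In 3D cells 9 of the 17 averaged below 0.1 TP10k, and the 6 markers compared had a median log2 ratio of 0.20. *Gata4*, a factor of endoderm, averaged 0.328 TP10k in 3D (0.419, 0.307 and 0.251) and 0.0107 in iTSC, against 2.92 in VE-like cells. The summed 8 epiblast and ESC markers averaged 2.01 TP10k in 3D and 9.77 in iTSC, against 52.1 in ESCs. The summed 12 fibroblast markers averaged 0.807 TP10k in 3D and 0.0991 in iTSC, with 11 and 12 of them below 0.1. No fibroblasts were measured beside them. In cells of 6000 to 8000 genes 1 of 2 fibroblast markers compared was called higher, beside 3.49% of all genes, with a median of 1.19. The part of other cells in the differences between 3D and 2D was not tested.

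A larger share of genes was called in the ExE-like pair than in the pairs of the other lineages. By the same rule 0.914% of genes were higher and 1.73% lower (2.65% in all) in 3D VE-like cells, taken from wells 1 to 16 with both *Amn* and *Cubn*, against iXEN cells. In 3D Epi-like cells, the cells of the same wells with *Pou5f1* but not both of these, 2.71% were higher and 2.1% lower (4.82% in all) than in ESCs. Of the genes higher in 3D ExE-like cells 26 were also called higher in VE-like and 43 in Epi-like cells, 6.28% and 10.4% of them and 27.7% and 14.4% of the calls of those pairs. Of the 330 lower genes 54 (16.4%) and 51 (15.5%) were called lower there, 30.3% and 22% of the calls of those pairs. The 3D cells of the 3 pairs come from 1 pool on the same plates. In all 3 pairs 10 genes were higher and 14 lower. *H19* was lower in VE-like cells than in iXEN cells too (0.0168 against 1.43 TP10k), and *Igf2* averaged 0.531 and 0.462 TP10k there.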

How the data were processed

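Single cells of RtL-embryoids and of 2D cultures were measured by SMART-seq2. The authors pseudoaligned the reads with kallisto to the GRCm38 transcriptome, summed them per gene, filtered mitochondrial, ribosomal and pseudogenes, and deposited TPM for 20999 genes per cell. TPM are corrected for length and keep no read number, so genes above 0 stand for depth. A gene list or member here was chosen with earlier results of these data known. Cells were grouped by plate and well number: 336 3D ExE-like cells (118, 108 and 110 on plates 3, 4 and 5) and 141 iTSC, of which 263 and 137 held at least 2 stem markers and 296 and 51 had *Pou5f1* at 0. Doublets were not called, since wells received sorted single cells. The labels do not tie well numbers to a sort gate. The 39 wells with no value counted as 0 genes.

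From the deposited TPM, TP10k, means, shares and log2 ratios (pseudocount 0.1 TP10k, genes in 25% of cells or more on a side) were computed with Python 3.11.15, numpy 2.4.6, pandas 2.3.3 and scipy 1.17.1, and drawn with matplotlib 3.10.9. No test was made, because each side is 1 sample. Named genes are the members of 26 lists, *Cd40*, and in each direction the 12 genes with the largest difference of mean ln(TP10k + 1) among those called in all cells and again in cells of 6000 to 8000 genes. From each list up to 4 members with the largest ratios or a ratio nearest 0 were named, and further list members in the text were chosen after their values were seen. Listed symbols not found in the table were not analysed here. The result of 1 list member is not reported here. The comparison was tried on simulated data from the 3D side only. The 3D ExE-like cells were split at random, and some genes were raised or lowered 4-fold. All raised genes, 95% of the lowered and 0.0608% of the unaltered ones were called. Such a split lacks the gap in genes per cell between 3D and iTSC and their differences in culture and library. It therefore cannot show how many calls between 3D and iTSC come from these. Alternatives were other minima of genes, pseudocounts, filters, scalings and averages, each plate left out, and other choices of cells. Positions are from Gencode vM21 (GRCm38).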

Additional observations from a re-analysis of the deposited data

Results flagged for a closer look

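Some genes called in 3D ExE-like cells against iTSC were called in the opposite direction in another lineage, on each of plates 3, 4 and 5, and these differences between lineages were not tested. *Utf1* had a log2 ratio of -2.29 in the ExE-like pair and of 1.55 in Epi-like cells against ESCs, *Dppa4* of -1.04 and 1.25, and *Dnmt3b* of -2.32 and 1.06. *Dppa5a* had -2.40 in the ExE-like pair and 1.04 in VE-like against iXEN cells, *Pou5f1* -2.45 and 1.42, *Nr0b1* -2.20 and 1.86, and *Upp1* -1.61 and 2.03. *Gpx3* was the one higher in the ExE-like pair, at 3.51, and lower in VE-like against iXEN cells, at -1.29. The lineages differ in medium and starting cell line as well.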

How the results depend on the processing

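Each result was recomputed under 20 alternatives, of which 17 were planned and 3 added after the data were seen. The 40 called genes among 70 followed kept their direction in every value except that of *Pou5f1* in cells chosen to have it at 0. The 24 leading genes were picked for large differences in all cells and in cells of 6000 to 8000 genes, so their size across settings is a description. Among them *Sparc* came to -0.87 when the *Amn* and *Cubn* cells were put back and *Upp1* to -0.77 in the mean of the 3 plate means of cells of 6000 to 8000 genes. The share of genes called depended on the scale and the filter. A pseudocount of 1 TP10k left 0.566% higher and 0.510% lower, one of 0.01 gave 7.72% and 7.93%, no filter on low genes 2.50% and 1.98%, and the difference of mean ln(TP10k + 1) 0.236% and 0.651%. TPM as deposited, with 5 TPM added, gave 6.14% higher. The other shares stayed within 1.5 times. Leaving out single plates gave 3.52% to 4.19% higher and 2.83% to 3.54% lower genes and correlations of 0.932 to 0.944. The medians of the transgene, trophoblast stem, pluripotency, glycolysis and epiblast lists kept their sign in all alternatives, while those of the endoderm, BMP and Nodal, FGF, DNA methylation, oxidative phosphorylation, hypoxia and several other lists near 0 took both signs. No paired analysis was possible because no test was made and each side is 1 sample. TPM keep no read number, so how far depth limits the low genes is unknown.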
